A study of Mus musculus with 5 samples.

Results

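Runx3 binding and H3K4me1 marking were described at 8 genes through which natural killer cells (NKC) act on other cells, namely the cytokine genes Ifng, Tnf, Lta, Ltb, Csf2 and Il10 and the death ligand genes Fasl and Tnfsf10. A peak was assigned to a gene when it overlapped the gene or its 20 kb flanks, with genes taken from the GENCODE M1 annotation and peaks in mm9 coordinates. These 8 genes stand among 22350 protein-coding genes on the 19 autosomes and chromosome X, to which the same rule was applied. The windows of Tnf, Lta and Ltb overlap, so the 8 genes make up 6 loci. The cells were splenic NKC of ICR mice, purified by negative selection, cultured for 7 days with 1000 units/ml of recombinant human IL-2 and described in the labels as uniformly NKp46+. Runx3, a transcription factor of the RUNX family, was immunoprecipitated in 2 libraries and the histone mark H3K4me1 in 1 library, with 2 non-immune serum (NIS) libraries as control. All libraries came from these cultured cells, and no resting, untreated or Runx3-deficient cells were compared.

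NKC secrete interferon-gamma, TNF, lymphotoxins and GM-CSF, which activate macrophages and shape the adaptive response, and can also release the inhibitory cytokine IL-10. They kill target cells by granule release and by displaying Fas ligand and TRAIL, members of the TNF superfamily whose receptors carry a death domain and start a caspase cascade. RUNX proteins bind short DNA motifs at promoters and enhancers, often beside ETS or AP-1 factors, while H3K4me1 is a mark found at enhancers and around active promoters.

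The peak lists give the position of each region called by MACS on joined reads. They hold no height, no p-value and no value for a single library, so no value below has a replicate error and no difference between peaks could be tested. Sequencing depth cannot be read from them, but by the study's methods fewer aligned reads were used for H3K4me1 than for Runx3. Peak presence says nothing of the amount of mRNA, and expression was not measured in these libraries. All 8 of 8 NKC marker genes examined had a Runx3 and an H3K4me1 peak in gene and 20 kb flanks. Over all protein-coding genes these shares were 41.1% and 51.1%. Among genes of other spleen cells, 3 of 5 T cell, 2 of 4 B cell and 2 of 3 myeloid genes had a Runx3 peak. An H3K4me1 peak lay at 3 of the 5, 3 of the 4 and 3 of the 3, with none at Cd8a, Cd8b1 and Ms4a1. H3K4me1 peaks per gene ran from 2 to 16 at NKC genes and from 4 to 17 at myeloid genes. At T cell and at B cell genes they ran from 0 to 4. These ranges overlap, so the peaks alone do not tell the cell type. By the study's methods, negative selection was followed by FACS sorting for the NK marker DX5, and nearly all cultured cells carried NKp46. The part of other cells in the results was not tested.

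Stretches of the Runx3 peaks nearest to each gene start, and of the widest peak where that was another one, are given here because the peaks differ in which motifs they hold and in whether these lie in promoter, coding or intergenic DNA. The stretches at 5.30 kb upstream of Ifng and at 21.7 kb downstream of the Fasl start were added after their values were seen. All were read 5′ to 3′ on the strand of the gene from mm9, and distances run from the peak centre to the 5′ end of the gene. Capitals mark RUNX letters (the form TGTGGT, the form TGTGGC, the form TGCGGT or the form TGCGGC, on either strand), except at the second Ifng line, where they mark T-box letters (AGGTGTGA on either strand), and at the second Tnf line, where they mark AP-1 letters (the form TGACTCA or the form TGAGTCA). Capitals mark both RUNX and AP-1 letters at the second Il10 line and the second Fasl line.
Ifng 0.313 kb upstream, chr10:117877669-117877794, plus strand: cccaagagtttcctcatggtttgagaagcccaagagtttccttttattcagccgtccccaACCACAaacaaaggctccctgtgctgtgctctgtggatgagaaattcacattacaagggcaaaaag
Ifng 5.30 kb upstream, chr10:117872665-117872804, plus strand: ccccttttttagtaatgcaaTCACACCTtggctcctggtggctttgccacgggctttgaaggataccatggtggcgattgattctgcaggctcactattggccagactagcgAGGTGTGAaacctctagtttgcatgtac
Tnf 18.0 kb upstream, chr17:35356956-35357081, minus strand: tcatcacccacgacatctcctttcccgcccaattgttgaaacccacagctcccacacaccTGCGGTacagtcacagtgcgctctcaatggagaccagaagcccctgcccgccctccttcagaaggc
Tnf 1.39 kb downstream of its start, chr17:35337502-35337622, minus strand: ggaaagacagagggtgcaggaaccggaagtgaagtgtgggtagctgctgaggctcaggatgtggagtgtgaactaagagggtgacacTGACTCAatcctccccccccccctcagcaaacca
Csf2 77 bp downstream of its start, chr11:54063015-54063112, minus strand: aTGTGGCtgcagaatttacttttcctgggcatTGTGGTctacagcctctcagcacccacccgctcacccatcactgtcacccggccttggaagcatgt
Il10 3.02 kb downstream of its start, chr1:132919591-132919716, plus strand: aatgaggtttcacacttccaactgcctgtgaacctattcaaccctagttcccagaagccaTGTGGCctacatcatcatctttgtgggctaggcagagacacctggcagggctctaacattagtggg
Il10 6.21 kb downstream of its start, chr1:132922586-132922711, plus strand: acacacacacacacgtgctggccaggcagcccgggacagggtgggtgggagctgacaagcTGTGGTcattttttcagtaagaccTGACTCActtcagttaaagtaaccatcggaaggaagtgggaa
Fasl 569 bp downstream of its start, chr1:163718116-163718241, minus strand: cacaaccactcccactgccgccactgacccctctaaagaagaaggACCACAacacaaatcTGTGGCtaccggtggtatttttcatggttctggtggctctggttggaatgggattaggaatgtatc
Fasl 21.7 kb downstream of its start, chr1:163696872-163696997, minus strand: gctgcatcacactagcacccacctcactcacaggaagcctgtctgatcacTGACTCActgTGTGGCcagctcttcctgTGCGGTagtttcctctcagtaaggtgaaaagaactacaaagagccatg
Tnfsf10 5.70 kb downstream of its start, chr3:27221612-27221737, plus strand: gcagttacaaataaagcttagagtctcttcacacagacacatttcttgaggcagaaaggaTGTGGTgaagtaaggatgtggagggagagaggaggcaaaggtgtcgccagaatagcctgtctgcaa

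Each of the 8 effector genes held at least 1 Runx3 peak in the gene or its 20 kb flanks. At Lta and Ltb no Runx3 peak lay in the gene body. None of the peaks in their windows had the Lta or the Ltb TSS as its nearest protein-coding TSS. Over all protein-coding genes, 41.1% held 1 Runx3 peak or more by the same rule, as did 35.8% of the 14041 genes no longer than Tnfsf10, the longest of the 8 at 25400 bp. Between 1 and 6 Runx3 peaks lay at a gene, with a median of 3, against a median of 0 over all protein-coding genes. At least 3 Runx3 peaks were found at 5 of the 8 genes (Tnf, Lta, Il10, Fasl and Tnfsf10), or 4 of the 6 loci, against 7.36% of all genes and 4.62% of the genes no longer than Tnfsf10. Fasl, with 6 peaks, stood highest, and 0.729% of protein-coding genes had at least as many. Csf2, with 1 peak, stood lowest. H3K4me1 peaks were present at all 8 genes as well (51.1% of all genes and 47.2% of those no longer than Tnfsf10), from 2 at Csf2 to 16 at Fasl. Their median was 9, against 1 over all protein-coding genes. Counted once each, 19 Runx3 peaks and 49 H3K4me1 peaks lay at the 8 genes, out of 11676 and 34204 in the lists, since 3 Runx3 and 14 H3K4me1 peaks fell in the windows of more than 1 of the genes of the Tnf cluster.

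**Figure D1:**
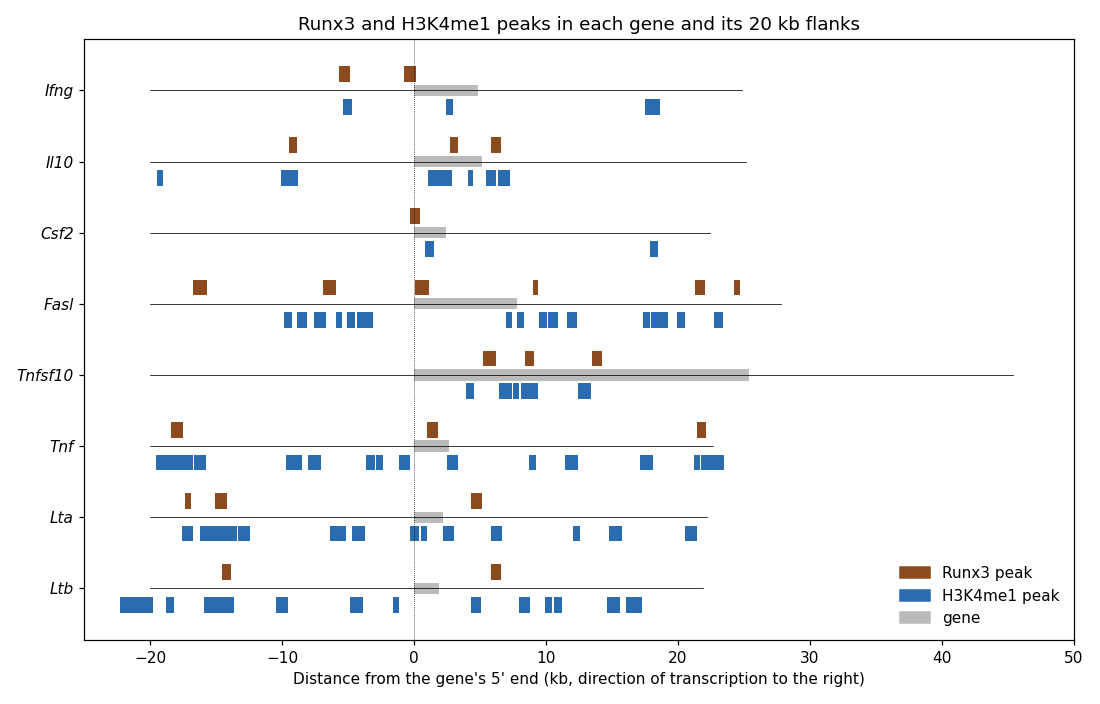
Runx3 peaks (brown, above each line) and H3K4me1 peaks (blue, below) drawn to scale against the distance in kb from the 5′ end of each gene, with the gene body in grey and the line spanning the gene and its 20 kb flanks. Fasl holds 6 Runx3 peaks, 1 inside the gene and the others in both flanks. Csf2 holds 1 at its start, and the 3 Runx3 peaks of Tnfsf10 all lie inside the gene. In the Tnf cluster, 3 Runx3 peaks appear on more than 1 line.

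**Figure D2:**
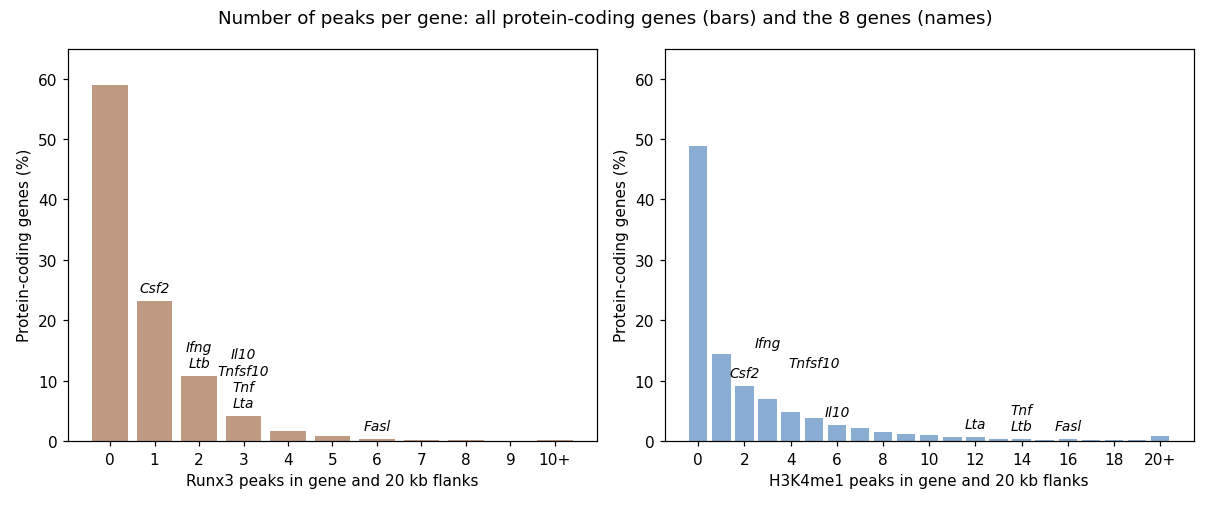
Percentage of protein-coding genes (bars) by the number of Runx3 peaks (left) and H3K4me1 peaks (right) in the gene and its 20 kb flanks, with the last bar pooling all higher numbers and the names of the 8 genes above the number each had. None of the 8 genes stands at 0, which was the most frequent number of either mark over all genes.

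Most of the 8 genes had no Runx3 peak at their start. The centre of a Runx3 peak lay within 1 kb of an annotated TSS of the gene at Ifng, Csf2 and Fasl, 3 of the 8, against 13.3% of all protein-coding genes (11.6% of those no longer than Tnfsf10). An H3K4me1 peak was centred that close at Lta and Tnf, 2 of the 8, against 14.6% (13.6%). No gene of the 8 had both. The share of all protein-coding genes with both was not counted, so this is a description only. Of the 19 Runx3 peaks, 16 had the TSS of one of the 8 genes as their nearest protein-coding TSS. The other 3 lay in the outer parts of the Tnf cluster, nearest to Gm16181 or Aif1. Within 1 kb of any protein-coding TSS lay 4 of the 19 (21.1%), and 11 (57.9%) lay 5 to 50 kb away. Over all 11676 Runx3 peaks these shares were 23.6% and 44.2%.

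Ifng, on chromosome 10 from 117878103 to 117882948, encodes interferon-gamma, the main macrophage-activating cytokine of NKC. It had 2 Runx3 peaks, both upstream, and 3 H3K4me1 peaks. The first Runx3 peak, at 117877354 to 117878226, was 873 bp wide, centred 313 bp upstream of the TSS and reached into the first exon. It held 5 RUNX matches (3 of the form TGTGGT, 1 of the form TGTGGC and 1 of the form TGCGGC), 1 of them inside the exon and none in coding sequence, with 5 ETS matches (the form AGGAAA, the form AGGAAG, the form CGGAAA or the form CGGAAG, on either strand) and 1 STAT match (TTCNNNGAA). In the printed stretch the ACCACA, which is TGTGGT on the other strand, stood 18 bases from the nearer of 2 ETS matches. This promoter peak overlapped no H3K4me1 peak, and the nearest H3K4me1 edges were 4414 bp upstream and 2749 bp downstream of its centre.

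The second Ifng peak, at 117872386 to 117873224 and centred 5298 bp upstream, was of another kind. It held no RUNX match in its 839 bp, one of 2 such peaks among the 19, while 96.0% of all Runx3 peaks held at least 1. It held 2 T-box matches, the letters bound by T-bet and Eomes, which 5.51% of all Runx3 peaks hold in at least 1 copy, and 3 ETS matches. An H3K4me1 peak covered 65.1% of it, including its centre. The printed stretch spans both T-box matches, which are on opposite strands. The other H3K4me1 peaks of Ifng lay 2.69 kb into the gene, in an intron, and 18.0 kb downstream of the start, without Runx3.

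With flanks of 100 kb, the Ifng region held 9 Runx3 and 10 H3K4me1 peaks, and Ifng had the nearest protein-coding TSS for every one of these 9. Beyond the 20 kb flanks they were centred 34.0, 33.2 and 21.7 kb upstream and 28.2, 29.7, 39.9 and 62.9 kb downstream of the start. A RUNX match was present in 8 of the 9, and 5 overlapped an H3K4me1 peak. The peaks at 34.0 and 33.2 kb upstream each held 4 RUNX matches and both overlapped H3K4me1. T-box letters occurred once each in the peaks at 39.9 and 62.9 kb. Ifng thus had 2 Runx3 peaks in the gene and its 20 kb flanks, a number that 18.1% of protein-coding genes reached, and 7 beyond them. Most Runx3 peaks of the wider window also lay beyond the 20 kb flanks at Tnf, Lta, Ltb and Csf2. This was not so at Il10, Fasl and Tnfsf10. At Tnf, Lta and Ltb these outer peaks were all nearest to the TSS of a gene outside the 8, such as H2-D1, Ddx39b or Bag6. Most of the wider window lies beyond the 20 kb flanks, and peak numbers over all protein-coding genes are not given for it.

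Tnf, Lta and Ltb lie side by side on chromosome 17 and encode TNF and the lymphotoxin subunits alpha and beta. TNF and lymphotoxin-alpha signal through the TNF receptors, and lymphotoxin-alpha with lymphotoxin-beta forms the membrane ligand of the lymphotoxin-beta receptor. The cluster, from 35311384 to 35362296 with flanks, held 4 Runx3 and 17 H3K4me1 peaks. A single Runx3 peak lay inside any of the 3 genes. It was centred 1390 bp downstream of the Tnf start, in an intron, at 35337174 to 35337951, and fell 4734 bp downstream of the start of Lta and 6178 bp downstream of that of Ltb. Like the distal Ifng peak it held no RUNX match. It held 2 AP-1 matches, 1 of them in its central 200 bp, and 2 ETS matches, and the printed stretch shows TGACTCA in the Tnf intron. It overlapped no H3K4me1 peak but lay between H3K4me1 peaks whose edges were 1735 bp upstream and 1115 bp downstream.

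The other 3 Runx3 peaks of the cluster stood at its outer ends, and each was almost wholly inside H3K4me1. The peak at 35356513 to 35357410, 18.0 kb upstream of Tnf and 14.7 kb upstream of Lta, was 898 bp wide and lay entirely inside an H3K4me1 peak of 2814 bp that overlapped Nfkbil1 and Gm16181. It held 3 RUNX matches, 1 of the form TGTGGT, 1 of the form TGCGGT and 1 of the form TGCGGC, and 1 AP-1 match. The peak at 35359237 to 35359702, 17.2 kb upstream of Lta, was 466 bp wide, held 2 RUNX matches close to its centre and also lay wholly inside H3K4me1. At the Ltb end, the peak at 35316816 to 35317511 lay 14.2 kb upstream of Ltb, over the start of the pseudogene Ncr3-ps, held 1 RUNX match and was covered to 98.7% by 2 H3K4me1 peaks. Lst1, between Ltb and this peak, is a further neighbour. The H3K4me1 peaks at the start of Lta, centred 25 bp and 742 bp downstream of it, and the one 764 bp upstream of Tnf overlapped no Runx3 peak.

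Csf2, which encodes GM-CSF, a growth factor of myeloid cells, lies on chromosome 11 from 54060773 to 54063169. It had the fewest peaks of the 8 genes, 1 Runx3 and 2 H3K4me1 peaks. The Runx3 peak, at 54062722 to 54063463 and 742 bp wide, was centred 77 bp downstream of the TSS, closer to a gene start than any other of the 19. It held 3 RUNX matches, of which 2 lay in the coding part of the first exon, 25 bases apart, and 1 lay upstream of the start. The printed stretch is all coding sequence, and its first RUNX match overlaps the start codon. The peak also overlapped the antisense transcript Gm12223, and it is the peak that the window of the neighbouring cytokine gene Il3 holds. Csf2 was the gene without any Runx3 peak on H3K4me1. Its H3K4me1 peaks were centred 1155 bp and 18.2 kb downstream of the start, the nearer one with its edge 736 bp from the Runx3 peak centre. Within 100 kb there were 4 more Runx3 peaks, 35.0, 47.9, 55.8 and 93.7 kb downstream and none upstream, and 3 of these 4 overlapped H3K4me1.

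Il10 encodes IL-10, an inhibitory cytokine, and lies on chromosome 1 from 132916422 to 132921551. Its 3 Runx3 peaks each overlapped H3K4me1, which was the case at no other gene of the 8. The peak centred 9179 bp upstream, at 132906931 to 132907556, lay wholly inside an H3K4me1 peak of 1245 bp and held 2 RUNX matches and 6 ETS matches. The peak 3022 bp downstream of the start, in an intron at 132919112 to 132919777, was covered to 30.6% and held 1 RUNX match, which stood 4 bases from a STAT match, as printed above. The peak 6207 bp downstream of the start and past the end of the gene, at 132922258 to 132923000, was covered to 78.3% and held 2 RUNX matches. In its printed stretch TGTGGT was followed by the AP-1 letters TGACTCA after 18 bases. No Runx3 and no H3K4me1 peak was centred within 1 kb of the Il10 TSS. With flanks of 100 kb, Il10 had 6 Runx3 peaks, the further ones 29.6, 70.1 and 72.6 kb downstream, and all 6 overlapped H3K4me1.

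Fasl encodes Fas ligand, which triggers apoptosis through the receptor Fas, and lies on chromosome 1 from 163710820 to 163718626. With 6 Runx3 and 16 H3K4me1 peaks it had the most of both among the 8 genes. All 6 Runx3 peaks held a RUNX match, 22 matches in all, and Fasl had the nearest protein-coding TSS for each. Yet 1 of the 6 overlapped H3K4me1, the peak 6429 bp upstream, covered to 25.6%. H3K4me1 covered 22.5% of the Fasl window, 29.4% of that of Tnf and 5.22% of that of Ifng.

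The peak at the start of Fasl, at 163717521 to 163718594, was 1074 bp wide, the widest of the 19, and centred 569 bp downstream of the start. Its 2 RUNX matches lay in the coding part of the first exon, 9 bases apart on opposite strands. The closest H3K4me1 edge was 3657 bp upstream of the centre. The peak 16.2 kb upstream was 1003 bp wide and held 9 RUNX matches, the most of the 19, against a median of 2 among the 19 and 3 over all Runx3 peaks. No H3K4me1 peak lay within 5 kb of it.

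The 3 downstream Runx3 peaks of Fasl lay at 9.18, 21.7 and 24.5 kb from the start. The one at 9.18 kb, at 163709250 to 163709636, was the narrowest of the 19 with 387 bp, held 2 RUNX matches and stood between H3K4me1 edges 894 bp upstream and 248 bp downstream of its centre. The one at 21.7 kb, at 163696605 to 163697325, held 4 RUNX and 14 ETS matches and 1 AP-1 match. Its printed stretch shows TGACTCA, then TGTGGC after 3 bases and TGCGGT a further 12 bases on, with an ETS match between these RUNX matches. It too stood between H3K4me1 peaks, 1120 bp and 1074 bp from its centre. The one at 24.5 kb held 3 RUNX matches, all TGTGGT and all in its central 200 bp. With flanks of 100 kb, 2 further Runx3 peaks appeared, 88.5 kb upstream and 53.5 kb downstream, and still 1 of the 8 overlapped H3K4me1.

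Tnfsf10 encodes TRAIL, which triggers apoptosis through death receptor 5 in mice, and lies on chromosome 3 from 27215950 to 27241349. Its 3 Runx3 and 5 H3K4me1 peaks were all centred in introns, from 4.24 to 13.9 kb downstream of the start, and none lay in either 20 kb flank. The Runx3 peak at 5.70 kb, at 27221173 to 27222127, was 955 bp wide and held 5 RUNX matches, 1 AP-1 match, 1 T-box match and no ETS match, the one peak of the 19 without ETS letters. The peak at 8.74 kb, at 27224358 to 27225027, reached an exon, lay wholly inside an H3K4me1 peak of 1293 bp and held 3 RUNX matches. The peak at 13.9 kb, at 27229428 to 27230207, held 4 RUNX matches and had its centre 449 bp past an H3K4me1 edge. Flanks of 100 kb added no Runx3 peak and 1 H3K4me1 peak, the smallest gain among the 8 genes.

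**Figure D3:**
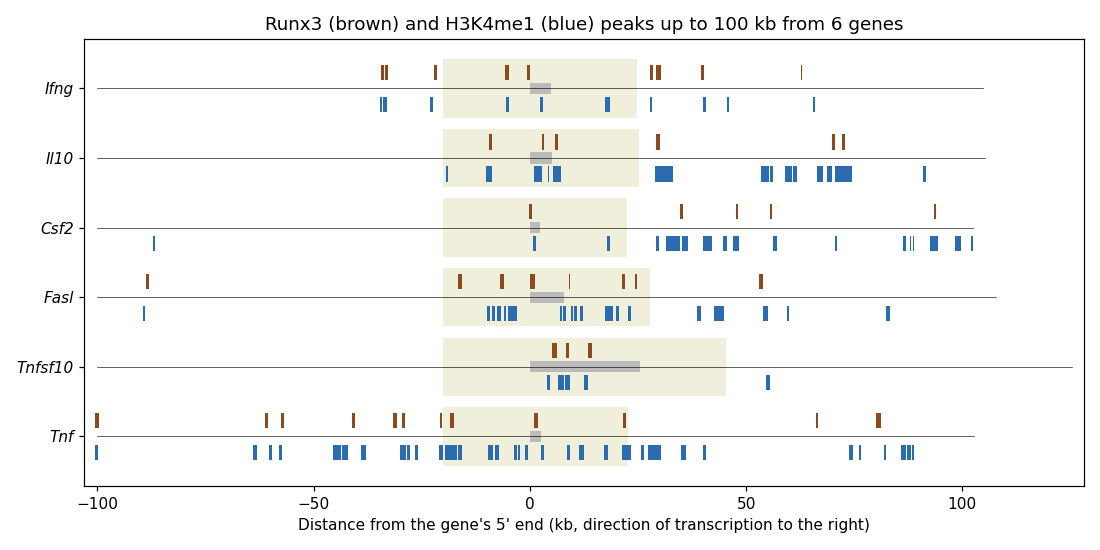
Runx3 peaks (brown, above) and H3K4me1 peaks (blue, below) against the distance in kb from the 5′ end of 6 genes, with the gene in grey, the line spanning 100 kb flanks and the shaded band the 20 kb flanks. Ifng gains 7 Runx3 peaks on both sides beyond the 20 kb flanks, the 4 gained by Csf2 are all downstream, and Tnfsf10 gains 0.

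Where Runx3 and H3K4me1 met differed between the loci. A Runx3 peak on H3K4me1 was found at 7 of the 8 genes, or 5 of the 6 loci, against 20.5% of all protein-coding genes (16.8% of those no longer than Tnfsf10). Of the 19 Runx3 peaks, 9 overlapped H3K4me1, or 47.4% (95% Wilson interval 27.3 to 68.3, counting error only), beside 48.4% of all Runx3 peaks. The interval holds the share of the whole list. Of the 49 H3K4me1 peaks, 11 overlapped Runx3, and the share over all H3K4me1 peaks was not counted. The centre lay inside H3K4me1 for 7 of the 19 (36.8%, 19.1 to 59.0), beside 28.2% of all Runx3 peaks. All 7 were centred more than 5 kb from the start of the gene they were assigned to. Those of the Tnf cluster, however, lay 818 to 4150 bp from the TSS of a neighbour, Gm16181 or Aif1. A further 6 (31.6%, 15.4 to 54.0) had their centre outside H3K4me1 but an H3K4me1 peak within 2 kb on both sides, beside 13.9% of all Runx3 peaks. These were the Tnf intron peak, the Il10 peak at 3.02 kb, the Fasl peaks at 6.43 kb upstream and 9.18 and 21.7 kb downstream, and the Tnfsf10 peak at 5.70 kb. The difference from the list was not tested. No H3K4me1 peak came within 1 kb of the edges of 3 peaks, the promoter peaks of Ifng and Fasl and the Fasl peak 16.2 kb upstream.

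**Figure D4:**
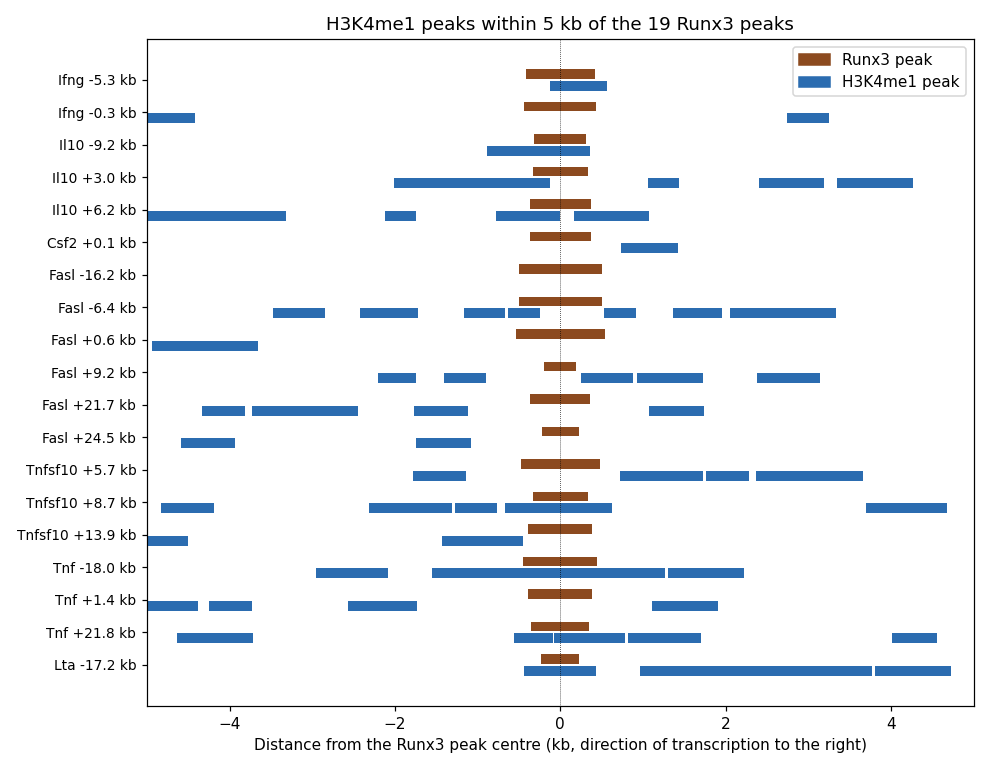
H3K4me1 peaks (blue) up to 5 kb either side of the centres of the 19 Runx3 peaks (brown, width to scale), 1 line per Runx3 peak named by a gene and the distance in kb from its 5′ end. The 3 Il10 peaks, the distal Ifng peak and the outer peaks of the Tnf cluster touch H3K4me1. So do the Fasl peak 6.43 kb upstream and the Tnfsf10 peak at 8.74 kb. With their centre outside H3K4me1, 6 peaks have an H3K4me1 peak within 2 kb on both sides. No H3K4me1 is drawn beside the Fasl peak 16.2 kb upstream.

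The motif content of the 19 Runx3 peaks was mixed. RUNX letters were in 17 (89.5%, 68.6 to 97.1), beside 96.0% of all Runx3 peaks, and TGTGGT in 16 (84.2%) beside 75.9%. ETS letters were in 18 (94.7%) beside 91.4%. AP-1 letters were in 8 (42.1%, 23.1 to 63.7), beside 26.2%, and STAT letters likewise in 8 (42.1%, 23.1 to 63.7), beside 21.6%. These intervals take the 19 peaks as independent, although they come from 6 loci, and the differences from the list were not tested. The STAT letters were found at Ifng, Lta, Csf2, Il10, Fasl and Tnfsf10, and the AP-1 letters at Il10, Fasl, Tnfsf10 and, in peaks that their windows share, Tnf, Lta and Ltb. RUNX and ETS letters within 50 bp of each other, the distance the study used for motif modules, were present in 11 of the 19 (57.9%) beside 59.2%, RUNX with RUNX in 9 (47.4%) beside 45.6% and RUNX with AP-1 in 4 (21.1%) beside 12.7%. These letters may overlap, above all the ETS forms with each other, and a match does not show that a factor was bound. The median width of the 19 peaks was 743 bp, beside 704 bp in the list, and their median GC content 48.5% beside 49.6%.

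**Figure D5:**
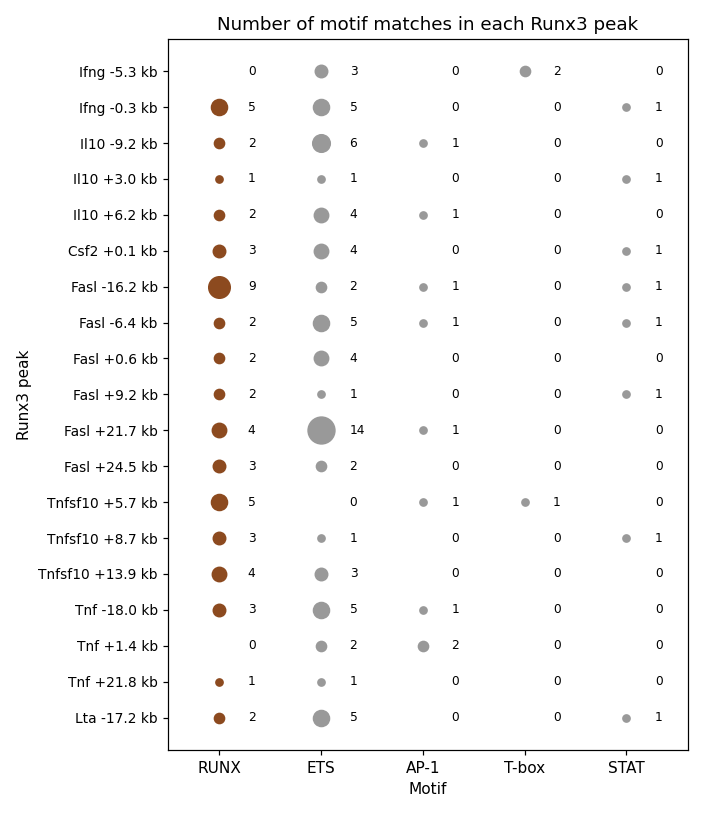
Number of RUNX (brown) and of ETS, AP-1, T-box and STAT matches (grey) in each of the 19 Runx3 peaks, with dot area in proportion to the number printed beside it. RUNX numbers run from 0 in the distal Ifng and the Tnf intron peak to 9 in the Fasl peak 16.2 kb upstream; the Fasl peak at 21.7 kb holds 14 ETS matches.

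In the RefSeq promoters of GRCm38.p6, which run from 250 bases before to 50 after each gene start and are 300 bases long, 7 of the 8 genes were matched by symbol. The table places some gene starts elsewhere than GENCODE M1. Matched to mm9, the Csf2 window ends 183 bp upstream of the GENCODE start, so it leaves out the RUNX match 36 bp upstream of that start and the centre of the Runx3 peak. RUNX letters were found 2 times at Lta and once each at Ifng and Tnf, and ETS letters at all 7. Of all 32619 promoters in that table, 45.2% held RUNX and 64.7% ETS letters. STAT letters were found 2 times at Lta and once at Ifng and Ltb, against 8.34% of all promoters. Of the 3 genes with RUNX letters in this window, Ifng had a Runx3 peak centred within 1 kb of its TSS. At Lta and Tnf no Runx3 peak was centred within 1 kb of the TSS.

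Genes of the same pathways were examined by the same rule. By it, 41.1% of all protein-coding genes had a Runx3 peak and 51.1% an H3K4me1 peak. Of 24 transcriptional regulators of Ifng, 21 had a Runx3 peak and 24 an H3K4me1 peak, with a median of 2 Runx3 peaks. They were led by Runx1 with 14 Runx3 peaks, then Bhlhe40, Nfkb1 and Runx3 with 6 each, while Hlx, Stat5a and Twist1 had 0. T-bet (Tbx21) and Eomes, which drive Ifng in NKC, had 2 Runx3 peaks each. Of 16 genes of death receptor signalling, downstream of Fas and the TRAIL receptor, 13 had a Runx3 peak, with a median of 2. Traf1 had 4, Traf2 had 3, Bid and Birc3 had 2 each, and Cflar, Diablo and Xiap had 0. A longer gene has a wider window, and Runx1 is 224600 bp long. Gene length was not corrected for here.

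The receptors of the 8 ligands, other TNF family ligands and other lymphocyte cytokines stood nearer to the 41.1% of all genes. Of 15 receptor genes, 7 had a Runx3 peak, led by Tnfrsf1b with 6, Ifngr2 and Il10rb with 3 each and Csf2ra with 2. Tnfrsf22 was not among the symbols of the annotation. Of 13 other TNF superfamily ligands, 5 had a Runx3 peak, of which Tnfsf13, Tnfsf14, Tnfsf18 and Tnfsf8 had 2 each and 8 had 0. Of 24 other lymphocyte cytokines, 12 had a Runx3 peak, led by Tgfb1 with 3 and Il16, Il4 and Lif with 2 each. The medians of these lists were 0, 0 and 0.5 Runx3 peaks per gene, against 3 for the 8 effector genes, whose choice was made with earlier results of these data known. The difference between the lists was not tested.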

How the data were processed

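Chromatin of IL-2-activated splenic NKC was immunoprecipitated with anti-Runx3 (2 libraries), anti-H3K4me1 (1 library) or NIS (2 libraries) and sequenced in reads of 40 bp. The authors aligned reads to mm9 with ELAND, kept unique alignments, joined the libraries of an antibody and called peaks with MACS against NIS after scaling the larger dataset to the smaller. Per the deposited files, a peak is a chromosome with 2 positions in bp, and the Runx3 peaks also carry a name. Measured values, such as a score, are not in the lists. Unique alignment, pooling and the caller's threshold thus decide which regions appear, and peak numbers cannot be weighed by signal.

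Starts, counted from 0 in the lists, are given from 1. Overlap needed 1 bp. Genes, exons and sequence came from GENCODE M1 and the same build; promoters came from RefSeq. Motifs were searched as exact letters on both strands. Intervals are Wilson intervals at 95% and take the peaks as independent, although several come from the same locus. The genes, gene lists and motifs were chosen with earlier results of these data known. The text names every Runx3 peak of the 8 genes, selected H3K4me1 peaks beside them, neighbours in their windows and, from each pathway list, the 4 genes with most Runx3 peaks (ties by name) and those with none where these were 5 or fewer; Tbx21, Eomes, Cd8a, Cd8b1 and Ms4a1 are named as markers. The window count and motif search were tested on simulated data. Resting NKC and expression arrays were not analysed here, and 1 sequence is not reported here. Calculations used python 3.11.15, scipy 1.17.1, pysam 0.24.0 and matplotlib 3.10.9.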

Additional observations from a re-analysis of the deposited data

How the results depend on the processing

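The lists hold no values per library, so no library could be left out, and no paired analysis was possible because no result comes from a test over samples. The window decided the number of peaks. With gene bodies alone, flanks of 5, 50 and 100 kb, the 8 genes held 8, 11, 32 and 43 Runx3 peaks and 15, 26, 81 and 116 H3K4me1 peaks, and joining peaks closer than 1 kb left 28 H3K4me1 peaks at 20 kb. The share of protein-coding genes with a Runx3 peak moved with it, to 23.2, 28.8, 33.5, 55.4 and 67.5% for gene bodies and flanks of 5, 10, 50 and 100 kb, to 34.9% for 20 kb around the TSSs, to 32.9% over all GENCODE genes and to 35.8% among genes no longer than Tnfsf10. For H3K4me1 these shares were 31.0, 39.8, 44.5, 62.0, 70.0, 45.4, 41.9 and 47.2%. With gene bodies alone, 6 of the 8 genes had a Runx3 peak and 7 an H3K4me1 peak. Allowing H3K4me1 up to 1 kb away raised the number of the 19 Runx3 peaks with H3K4me1 from 9 to 16. The share of all Runx3 peaks under this wider rule is not given, so the 16 cannot be set beside the whole list. Of the alternatives tried, 29 left a count within 1.5 times its value or a share within its Wilson interval, and 26 did not. Pooled peak lists limit the statements made here: an absent peak may lie below the caller's threshold, and depth per library was not used here.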
